A study of Mus musculus with 11 samples.

Results

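The 10 genes described here encode transporters of the blood-brain barrier: Slc2a1, Slc7a5, Slc38a5, Slc16a1, Mfsd2a, Slco1c1, Slco1a4, Slc22a8, Abcb1a and Abcg2. They were chosen by gene symbol among 32285 features, and all 10 passed the filter on low counts in endothelial cells, where 16635 genes were tested. Their unique molecular identifiers (UMIs, each standing for 1 captured transcript) were summed in each mouse and cell type, and were compared between 4 groups and between endothelial clusters. The groups were wild-type mice after sham surgery (sham + WT, 3 mice), Lrg1 knockout mice after sham surgery (sham + Lrg1-/-, 3 mice), wild-type mice after middle cerebral artery occlusion and reperfusion (MCAO/R + WT, 2 mice) and Lrg1 knockout mice after the same injury (MCAO/R + Lrg1-/-, 3 mice). MCAO/R is a filament model of ischemic stroke, and Lrg1 encodes a secreted leucine-rich glycoprotein. The knockout was constitutive, in every cell and from conception. The wild-type mice were male C57BL/6 mice from another source than the knockout line, which was backcrossed to C57BL/6N, the ages given for the mice of each genotype also differ, and the sex of the knockout mice is not given in the sources used here, so genotype, substrain, age and source cannot be told apart. Each library came from the right brain tissue of 1 mouse, dissociated with enzymes and treated to lyse red blood cells.

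Brain endothelial cells are joined by tight junctions, so that most polar nutrients cross only through carriers in their membranes. Influx carriers bring glucose, amino acids, monocarboxylates, lysophospholipids and thyroid hormone to the brain, while efflux pumps return drugs and metabolites to the blood. The set of carriers changes along the vessel, from arteriole through capillary to venule, and is largely missing from the fenestrated capillaries of the choroid plexus. Canonical Wnt signalling in the endothelial cell is known to maintain much of this program.

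The sequences upstream of 3 members are shown as examples. Slc2a1 was the member that rose after MCAO/R, and Slco1a4 was lower in MCAO/R + Lrg1-/- than in MCAO/R + WT mice. Slco1c1 was among those that fell in wild-type mice, by a call that was lost in several fits. The sequences were taken from RefSeq on build GRCm38.p6 and are written 5′ to 3′ on the strand of the gene. Capitals mark matches on either strand to ACGTG or GCGTG, the core bound by hypoxia-inducible factors, or to CTTTGA or CTTTGT, the core bound by TCF/LEF factors of Wnt signalling.
Slc2a1, chr4:119108495-119108710, + strand: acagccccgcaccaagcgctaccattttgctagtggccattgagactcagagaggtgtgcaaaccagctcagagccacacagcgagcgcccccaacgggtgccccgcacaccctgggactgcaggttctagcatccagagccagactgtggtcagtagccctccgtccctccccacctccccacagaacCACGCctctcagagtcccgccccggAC
Slco1c1, chr6:141524104-141524353, + strand: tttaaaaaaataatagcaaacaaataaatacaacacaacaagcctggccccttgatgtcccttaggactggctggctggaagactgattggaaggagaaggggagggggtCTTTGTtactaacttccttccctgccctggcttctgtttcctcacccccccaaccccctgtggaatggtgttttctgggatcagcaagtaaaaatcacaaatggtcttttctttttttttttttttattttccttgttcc
Slco1a4, chr6:141856221-141856470, - strand: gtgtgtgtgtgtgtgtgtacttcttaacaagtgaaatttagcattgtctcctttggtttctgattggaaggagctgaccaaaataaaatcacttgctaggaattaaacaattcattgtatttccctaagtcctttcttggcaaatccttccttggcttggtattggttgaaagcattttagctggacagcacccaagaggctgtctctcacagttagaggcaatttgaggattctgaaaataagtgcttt

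The Slc2a1 run was cut where the annotated first exon begins, which leaves 216 bases, and its last capitals are the start of a match that runs on into the exon. The Slc2a1 window held 2 matches to the hypoxia core and 0 to the TCF/LEF core, the Slco1c1 window 1 match to the TCF/LEF core, and the Slco1a4 window neither. Of the windows not printed, that of Slc38a5, the member with the largest fall after MCAO/R in wild-type mice, held 2 matches to the hypoxia core and that of Slc16a1 4, both with 0 to the TCF/LEF core. Mfsd2a had 4 and 1, Abcb1a 0 and 3 and Slc22a8 0 and 1 in the same order, and the Abcg2 windows held neither. The windows of Slc38a5 and Slc22a8 and some of those of Abcg2 overlap annotated exons. Most of the Slc38a5 window (chrX:8271131-8271380) lies within the gene. That of Abcb1a (chr5:8566841-8567090) lies away from the gene start given below, at 8660077. RefSeq windows of 250 bases were found for 9 of the 10 members, 11 windows in all because Abcg2 has several start sites, and Slc7a5 had none. The hypoxia core was found in 4 of these 11 windows and in 38.6% of 32851 windows of all genes, and the TCF/LEF core in 4 of 11 and in 27.6%. A palindromic CACGTG counts as 2 overlapping matches, and none of these matches is shown to be a bound site.

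The libraries differed in depth and in the transcripts of other cell types found in endothelial cells. After the filters, each library held between 3054 and 32130 cells, with a median of 3190 to 11504 UMIs per cell. Of all these cells 28605 were left unnamed by the markers, 222 to 2010 in each wild-type library and 793 to 17327 in each knockout library. The unnamed cells were 17327 of 32130 in MCAO/R + Lrg1-/- replicate 5 and 3039 of 6052 in MCAO/R + Lrg1-/- replicate 1. Endothelial cells were called from clusters by markers, without the fenestrated choroid plexus cluster, and numbered 7020 in sham + WT, 3461 in sham + Lrg1-/-, 4907 in MCAO/R + WT and 4993 in MCAO/R + Lrg1-/-, with between 553 and 3531 in a library. Clusters were named endothelial by the 8 markers Cldn5, Pecam1, Cdh5, Flt1, Ly6c1, Ly6a, Egfl7 and Kdr, so their levels are no independent check. Each marker was highest in these cells among all named types, by 3.08 times (Pecam1) to 9.61 times (Flt1) over the next type. That type was T cells for 5 of the 8 markers, with 538 CPM (UMIs of a gene per 1000000 UMIs of all genes) of Cldn5 in T cells against 4038 in endothelial cells, 460 against 4423 of Flt1 and 132 against 1036 of Egfl7. Lrg1 itself was at 0 in the endothelial cells of all 6 knockout mice, at 7.29 to 24.0 CPM in sham + WT mice and at 445 and 543 in MCAO/R + WT mice. Xist, the RNA that silences 1 X chromosome in female cells, was at 345 and 415 CPM in the endothelial cells of MCAO/R + Lrg1-/- replicates 1 and 2, with 0 to 2 UMIs in each other library. In these 2 libraries 4 Y-linked genes (Ddx3y, Eif2s3y, Uty and Kdm5d) summed to 0.474 and 0.725 CPM, against 184 to 358 in the other 9, so that 2 of the 3 injured knockout mice had the transcripts of female and every other mouse those of male animals. Results of the members that rest on the injured knockout mice were also computed without these 2 libraries, though not all of these values are given below. This setting was chosen after the data were seen and leaves 1 such mouse, MCAO/R + Lrg1-/- replicate 5, assumed to vary like the other groups. Results of the gene lists are given with these libraries only. Haemoglobin transcripts, 4 genes of red blood cells, took 2.66% to 8.33% of endothelial UMIs in sham + Lrg1-/- and 2.17% to 2.94% in MCAO/R + Lrg1-/- mice, against at most 0.0715% in any wild-type library. Transcripts of 6 choroid plexus epithelial genes took 0.475% to 2.65% in the knockout libraries and at most 0.0841% in the wild-type libraries. The share of 12 pan-endothelial genes was 1.62% to 1.79% in sham + WT, 0.989% to 1.43% in sham + Lrg1-/-, 1.29% to 1.31% in MCAO/R + WT and 1.09% to 1.19% in MCAO/R + Lrg1-/-. An endothelial cluster led by choroid plexus genes, left unnamed, held 31.9% to 64.7% of endothelial cells in sham + Lrg1-/- mice and 24.9% to 55.1% in MCAO/R + Lrg1-/- mice, against 6.50% to 19.8% in the wild-type libraries, and it held most endothelial cells of sham + Lrg1-/- replicate 5 and of MCAO/R + Lrg1-/- replicates 1 and 5. The other clusters shifted as well. Capillary cells were 49.3% to 56.5% of endothelial cells in sham + WT, 18.0% to 39.1% in sham + Lrg1-/-, 44.9% to 65.6% in MCAO/R + WT and 15.7% to 21.5% in MCAO/R + Lrg1-/- mice, and arterial cells 26.1% to 33.5%, 10.1% to 20.8%, 9.98% to 12.3% and 8.03% to 10.1%. A cluster led by Apln, also unnamed, held 0.781% to 1.54%, 1.67% to 2.83%, 5.18% to 25.7% and 13.4% to 41.0% in the same order. Transcripts of 7 genes of the dissociation response took 2.77% to 3.14% of endothelial UMIs in sham + WT, 1.93% to 2.56% in sham + Lrg1-/-, 2.30% to 2.45% in MCAO/R + WT and 1.37% to 1.59% in MCAO/R + Lrg1-/- mice. Of these 7 genes 0 were called after MCAO/R in wild-type mice by edgeR (3 had an unadjusted p under 0.05), 5 fell in knockout mice (beside 5.34% of all genes), and 4 between injured genotypes and 3 between sham genotypes were lower in the knockout (beside 12.1% and 15.4%). The part of all these differences in the results was not tested. If every choroid plexus transcript had come with Ttr, the transthyretin gene of that epithelium, the amount carried over would be at most 5.46% of a member's level, for Slc22a8.

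**Figure D1:**
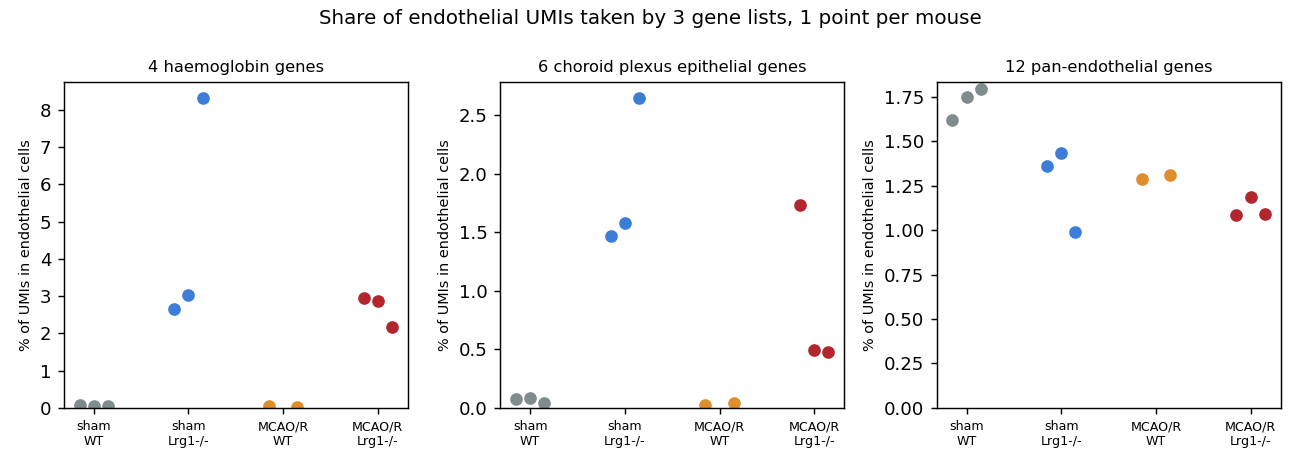
Share of all endothelial UMIs, in percent, taken by 4 haemoglobin genes, 6 choroid plexus epithelial genes and 12 pan-endothelial genes, with 1 point per mouse in each of the 4 groups. Haemoglobin and choroid plexus transcripts lie near 0 in the 5 wild-type mice and are higher in the 6 knockout mice, while the pan-endothelial share is highest in sham + WT mice at 1.62% to 1.79%.

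Every one of the 10 transporters had its highest mean level in endothelial cells among 18 named cell types over all libraries, as a description without a test. Within the groups this held for 10 members in each sham group, 8 in MCAO/R + WT and 9 in MCAO/R + Lrg1-/- mice, the exceptions being Mfsd2a, higher in astrocytes of MCAO/R + WT mice, and Slc22a8, higher in pericytes of both injured groups. The mean over libraries was 2270 CPM for Slc2a1 in endothelial cells and 509 in ciliated ependymal cells, the next type. Slc2a1 encodes GLUT1, the glucose carrier of the barrier. Slco1a4, an organic anion transporter, was at 1784 in endothelial cells and at 217 in T cells. Abcb1a, which encodes the drug pump P-glycoprotein, was at 902 in endothelial cells and at 228 in T cells, and Abcg2, the efflux pump known as breast cancer resistance protein, was at 587 in endothelial cells and at 245 in fibroblasts. Whether the T cell UMIs of members came from endothelial RNA was not tested. In microglia the means were 11.5 for Abcb1a, 48.7 for Abcg2 and 26.7 for Slco1a4.

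For Slco1c1 and Slc16a1 the next type was closer, at 2.30 and 2.13 times below the endothelium, while for Slc7a5 and Slc38a5 it was T cells, at 4.30 and 6.85 times below. Slco1c1, the thyroxine carrier, was at 912 CPM in endothelial cells, at 397 in astrocytes and at 329 in choroid plexus epithelial cells. Slc16a1, which encodes the lactate and ketone body carrier MCT1, was at 256 in endothelial cells, at 120 in ciliated ependymal cells and at 78.6 in oligodendrocytes. Slc7a5, which encodes LAT1, the carrier of leucine and other large neutral amino acids, was at 427 in endothelial cells and at 99.3 in T cells, and Slc38a5, a carrier of glutamine and other small neutral amino acids, at 142 in endothelial cells and at 20.6 in T cells. Endothelial levels of these 4 genes were above the next type in every library that held both.

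Mfsd2a and Slc22a8 stood apart less. Mfsd2a encodes the carrier of lysophosphatidylcholine with docosahexaenoic acid and is known to hold down vesicle traffic across the barrier. It was at 139 CPM in endothelial cells, at 102 in oligodendrocyte precursors and at 86.0 in astrocytes. Astrocytes of MCAO/R + WT mice had 152 and 293 against 107 and 194 in endothelial cells, and endothelial cells were above the precursors in 2 of the 3 libraries that held both. Slc22a8, which encodes the organic anion transporter OAT3, was at 185 in endothelial cells, at 144 in pericytes and at 117 in fibroblasts. Endothelial cells were above pericytes in 5 of 9 libraries for Slc22a8, and this split followed surgery. In the 5 sham libraries with enough pericytes endothelial cells were higher, with 311 to 333 CPM against 223 to 289 in sham + WT mice, and in the 4 injured libraries pericytes were higher.

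**Figure D2:**
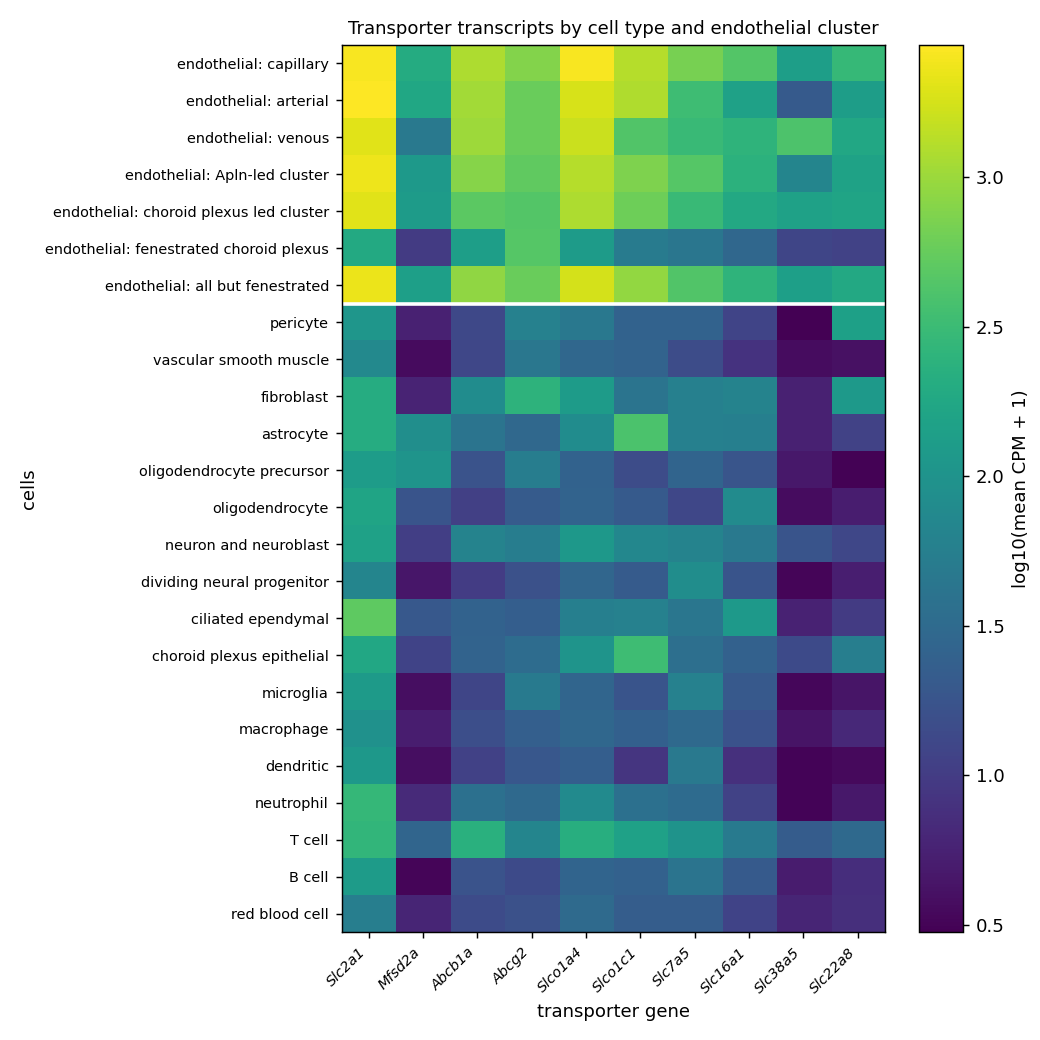
Mean level of each transporter (columns) in endothelial clusters and in the other named cell types (rows), as log10 of the mean CPM plus 1 over the libraries with at least 20 cells. The row of all endothelial cells but the fenestrated ones is brighter in each column than every row under the white line, and Slc22a8 in pericytes (144 against 185 CPM) and Mfsd2a in oligodendrocyte precursors (102 against 139) come closest to it over all libraries.

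Along the vessel, most members were higher in capillary than in arterial or venous clusters, again as a description, since the clusters were defined on the same cells. The transporters of this report and of the lists were kept out of the genes used for clustering. In all 11 libraries, 7 members were higher in capillary than in arterial cells, and 7 were higher in capillary than in venous cells. The capillary level of Slc16a1 was 3.06 times the arterial level in the median library, that of Slc22a8 2.27 times and that of Slc7a5 2.10 times. Mfsd2a was 4.03 times and Slco1c1 3.31 times higher in capillary than in venous cells, with each of the 11 libraries in the same direction.

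Slc2a1 and Slc38a5 followed other orders. Slc2a1 was higher in arterial than in capillary cells in 9 of 11 libraries, by 1.19 times in the median, and arterial exceeded venous cells in 11 of 11. Slc38a5 was higher in venous than in capillary cells in 11 of 11 libraries, by 2.89 times in the median, and 23.5 times higher in venous than in arterial cells. Abcb1a was higher in capillary than in arterial cells in 11 of 11 libraries, by 1.08 times in the median, and higher in capillary than in venous cells in 7 of 11. Its capillary and venous means were 1178 and 1204 CPM in sham + WT, 1256 and 1245 in sham + Lrg1-/-, 1299 and 925 in MCAO/R + WT and 1082 and 625 in MCAO/R + Lrg1-/- mice, so that the levels came apart in the injured groups. In the fenestrated choroid plexus cluster all 10 members were lower than in capillary cells in each of the 5 libraries with at least 20 such cells. Slco1c1 was 31.5 times and Slc22a8 40.4 times higher in capillary than in fenestrated cells in the median library, and Abcg2, at 2.84 times, differed least.

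The first question on the injury was how the transporters changed in wild-type mice. After MCAO/R, 1 of the 10 members rose and 3 fell in endothelial cells, where 5.54% of all tested genes rose and 6.21% fell. Between the same groups the arterial share of endothelial cells was 26.1% to 33.5% in sham and 9.98% and 12.3% in injured mice, and the share of the Apln-led cluster at most 1.54% in sham and 5.18% and 25.7% in injured mice. A gene counts as risen or fallen when its adjusted p in edgeR's quasi-likelihood test with Benjamini-Hochberg adjustment over all genes was under 0.05 and the natural log of its fold change was beyond 0.25. In sums of this kind, less RNA per cell and fewer cells of a cluster cannot be told apart. Without overlap between the 2 wild-type groups, 24.1% of 16607 genes were higher and 30.3% lower after MCAO/R, and 1 and 4 of the members.

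Slc2a1 (chr4:119108711-119137983, + strand, GENCODE coordinates on GRCm38) had 1597, 1656 and 1661 CPM in the endothelial cells of the sham + WT mice and 4242 and 5604 in the MCAO/R + WT mice. Both injured mice lay above all 3 sham mice. The log2 fold change was 1.60 ± 0.17 (SE; adjusted p = 0.000132, edgeR quasi-likelihood test), a 3.04-fold rise, and the call held without each library in turn.

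Slc38a5 (chrX:8271133-8280179, + strand) changed in the opposite direction. It had 160, 202 and 199 CPM in sham + WT mice and 31.8 and 51.9 in MCAO/R + WT mice. The groups did not overlap, and the log2 fold change was -2.15 ± 0.34 (SE; adjusted p = 0.0016, edgeR), so that sham levels were 4.44 times the injured levels.

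The organic anion carriers Slc22a8 (chr19:8591254-8611835, + strand) and Slco1c1 (chr6:141524368-141570177, + strand) also fell. Slc22a8 had 311, 317 and 333 CPM in sham + WT and 83.0 and 148 in MCAO/R + WT mice, with no overlap (log2 fold change -1.46 ± 0.29 SE, adjusted p = 0.00712, edgeR). Slco1c1 had 1235, 1299 and 1462 in sham + WT and 608 and 845 in MCAO/R + WT mice, with no overlap either (log2 fold change -0.86 ± 0.24 SE, adjusted p = 0.0361, edgeR). The Slc22a8 call was lost without MCAO/R + WT replicate 1 (log2 fold change -1.13, adjusted p = 0.105). The Slco1c1 call was lost without any 1 of sham + WT replicates 1, 2 and 3, MCAO/R + WT replicates 1 and 2 and MCAO/R + Lrg1-/- replicate 2, with log2 fold changes of -1.07 to -0.68 over all such fits. Without the Apln-led cluster, a setting chosen after the data were seen, Slco1c1 was not called either (-0.73, adjusted p = 0.0646, edgeR). Where a group was left with 1 mouse, that mouse was assumed to vary like the other groups.

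For the other 6 members no change passed the test in wild-type mice. Slc16a1 (chr3:104638668-104658462, + strand) had 328 to 359 CPM in sham + WT and 234 and 249 in MCAO/R + WT mice, which did not overlap (log2 fold change -0.49 ± 0.16 SE, adjusted p = 0.0675, edgeR). Slco1a4 (chr6:141805440-141856199, - strand) had 2033, 2374 and 2501 in sham + WT and 2189 and 3142 in MCAO/R + WT mice (log2 fold change 0.22 ± 0.20 SE), and the groups overlapped. The log2 fold changes of Abcb1a (chr5:8660077-8748575, + strand), Abcg2 (chr6:58584523-58695676, + strand), Slc7a5 (chr8:121881150-121907694, - strand) and Mfsd2a (chr4:122946850-122961188, - strand) lay between -0.28 and -0.05. Abcb1a had 1084 to 1177 CPM in sham + WT and 1007 and 1153 in MCAO/R + WT mice, and Abcg2 had 712 to 784 and 655 and 738. Slc7a5 had 482 to 539 in sham + WT and 396 and 486 in MCAO/R + WT mice, and Mfsd2a had 166 to 216 and 107 and 194, so that for these 4 genes the groups overlapped.

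Libraries were also scaled to the 12 pan-endothelial genes in place of all genes. That scaling moved the median log2 fold change of all genes from 0.00 to 0.38 in this comparison, and this shift is part of each fold change under it. Slc2a1 (log2 fold change 1.99), Slc38a5 (-1.75) and Slc22a8 (-1.07) were called in the same directions, Slco1c1 was not (-0.47, adjusted p = 0.144, edgeR), and Slco1a4 was called higher (0.62, adjusted p = 0.0461, edgeR).

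**Figure D3:**
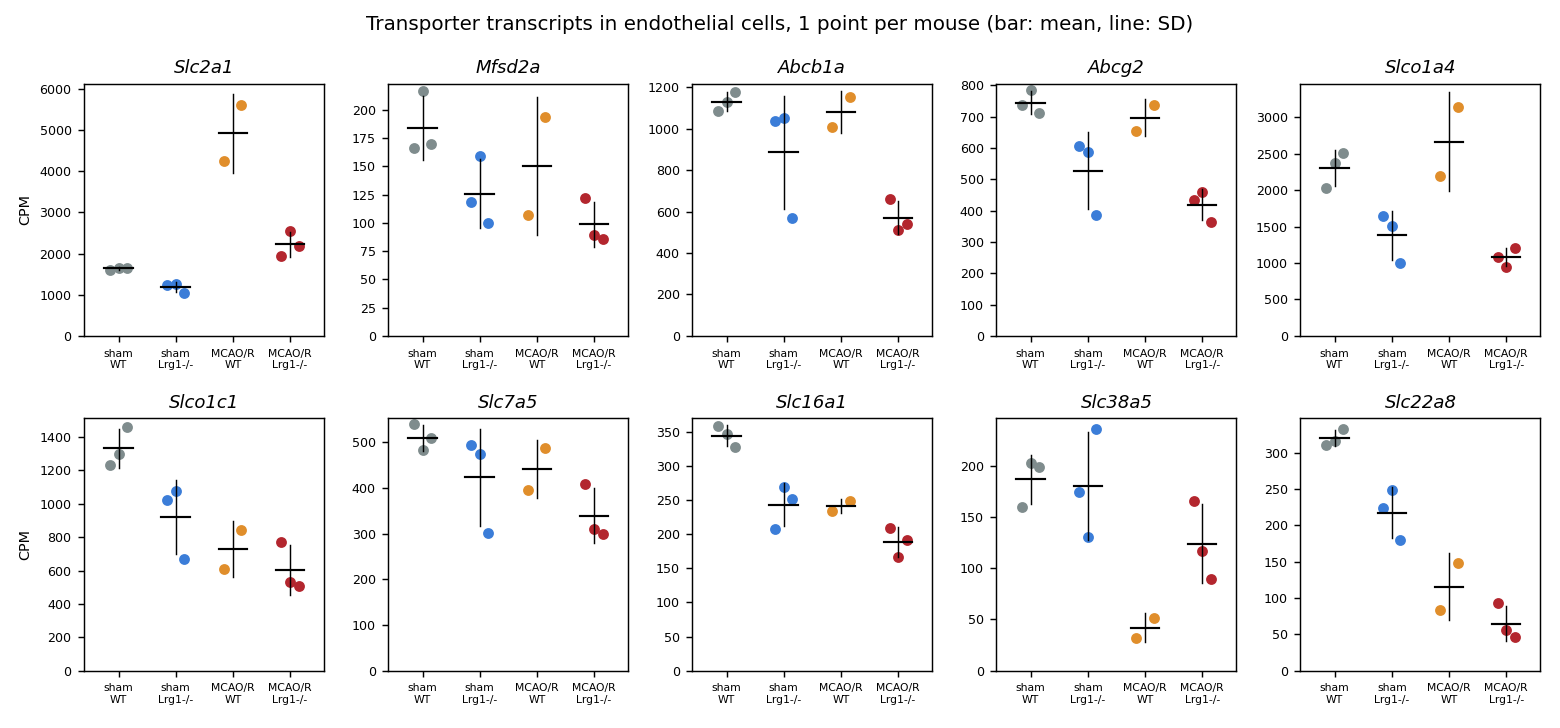
Level of each of the 10 transporters in endothelial cells, in CPM, with 1 point per mouse, a bar at the group mean and a line for the SD. Slc2a1 is highest in the 2 MCAO/R + WT mice, at 4242 and 5604, and Slc38a5 is lowest in the same mice, at 31.8 and 51.9.

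The same question was asked in knockout mice. In endothelial cells 1 of the 10 members rose and 2 fell after MCAO/R, where 6.93% of all tested genes rose and 5.34% fell. Slc2a1 had 1226, 1268 and 1048 CPM in sham + Lrg1-/- and 1940, 2550 and 2179 in MCAO/R + Lrg1-/- mice, with no overlap (log2 fold change 0.89 ± 0.15 SE, adjusted p = 0.0053, edgeR). Slc22a8 had 225, 249 and 179 in sham + Lrg1-/- and 92.8, 56.1 and 45.9 in MCAO/R + Lrg1-/- mice (log2 fold change -1.77 ± 0.26 SE, adjusted p = 0.00254, edgeR), again with no overlap. In this comparison 15.2% of 16607 genes were higher and 9.62% lower without overlap, and 1 and 1 of the members.

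Abcb1a was the third call in knockout mice. It had 1036, 1050 and 571 CPM in sham + Lrg1-/- and 660, 511 and 542 in MCAO/R + Lrg1-/- mice. The groups overlapped through sham + Lrg1-/- replicate 5, the low value of its group (log2 fold change -0.65 ± 0.19 SE, adjusted p = 0.0469, edgeR). Leaving out 9 of the 11 libraries, 1 at a time, ended this call, with adjusted p up to 0.17 in edgeR, and the exceptions were sham + Lrg1-/- replicate 5 and MCAO/R + Lrg1-/- replicate 1. Scaling to pan-endothelial genes, which moved the median of all genes from 0.01 to 0.18, also ended it (log2 fold change -0.43, adjusted p = 0.103, edgeR) and left Slc2a1 (1.06) and Slc22a8 (-1.58) called. Without the Apln-led cluster Abcb1a was not called (-0.60, adjusted p = 0.0824, edgeR). Slc38a5 had 175, 130 and 236 in sham + Lrg1-/- and 166, 116 and 89.9 in MCAO/R + Lrg1-/- mice, which overlapped (log2 fold change -0.58 ± 0.28 SE, adjusted p = 0.202, edgeR).

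Without the cluster led by choroid plexus genes, a setting chosen after the data were seen, 7 members were called in knockout mice, 1 higher and 6 lower, where 12.2% of all genes rose and 10.2% fell in that fit. Those added were Abcg2 (log2 fold change -0.42), Slco1a4 (-0.48), Slco1c1 (-0.73) and Slc7a5 (-0.42). Without sham + Lrg1-/- replicate 5, 6 members were called, beside 9.11% of genes up and 7.43% down, and without MCAO/R + Lrg1-/- replicate 1, 5, beside 8.9% and 8.18%. Without the 2 libraries with Xist, Slc2a1 (0.82) and Slc22a8 (-2.31) were called, beside 2.94% of genes up and 2.11% down, and Abcb1a was not (-0.77, adjusted p = 0.161, edgeR).

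The next comparison, between knockout and wild-type mice after MCAO/R, asked whether the knockout differed in injured tissue. In endothelial cells 5 of the 10 members were lower and 1 was higher in MCAO/R + Lrg1-/- than in MCAO/R + WT mice, where 12.1% of all tested genes were lower and 14.9% were higher. Slc2a1, with 1940 to 2550 CPM in the knockout and 4242 and 5604 in the wild-type mice, was 2.22 times lower (log2 fold change -1.15 ± 0.17 SE, adjusted p = 0.00152, edgeR). Slco1a4 had 1087, 949 and 1206 in the knockout and 2189 and 3142 in the wild-type mice (log2 fold change -1.31 ± 0.20 SE, adjusted p = 0.0019, edgeR). Neither gene's groups overlapped.

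The efflux pumps were lower as well. Abcb1a had 660, 511 and 542 CPM in MCAO/R + Lrg1-/- and 1007 and 1153 in MCAO/R + WT mice (log2 fold change -0.93 ± 0.21 SE, adjusted p = 0.00966, edgeR). Abcg2 had 434, 458 and 365 against 655 and 738 (log2 fold change -0.74 ± 0.18 SE, adjusted p = 0.0127, edgeR). Neither pump's groups overlapped. Between the injured genotypes 26.7% of 16607 genes were lower and 28.6% higher in the knockout without overlap, and 5 and 1 of the members. Slc22a8, with 45.9 to 92.8 against 83.0 and 148, overlapped between the groups (log2 fold change -0.83 ± 0.28 SE, adjusted p = 0.0455, edgeR).

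Slc38a5 was the member that was higher in injured knockout mice. It had 166, 116 and 89.9 CPM in MCAO/R + Lrg1-/- and 31.8 and 51.9 in MCAO/R + WT mice, with no overlap (log2 fold change 1.57 ± 0.33 SE, adjusted p = 0.00709, edgeR), a 2.97-fold difference. Of the 3 injured knockout mice, 1 lay within the range of 130 to 236 of sham + Lrg1-/- mice and 2 lay below it. The remaining members, Mfsd2a, Slco1c1, Slc7a5 and Slc16a1, had log2 fold changes of -0.60 to -0.27 that did not pass the test.

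Single libraries decided part of these calls. Without MCAO/R + WT replicate 2, 3 members were called, beside 3.72% of genes higher and 4.04% lower, and Abcb1a (log2 fold change -0.88, adjusted p = 0.0675), Abcg2 (-0.70, adjusted p = 0.0839) and Slc22a8 (-0.41, adjusted p = 0.4) were lost in edgeR. Without MCAO/R + WT replicate 1, Slc38a5 (1.29, adjusted p = 0.0711) and Abcg2 (-0.78, adjusted p = 0.0572) were lost, beside 5.39% and 3.78% of genes. The Slc22a8 call was lost in 8 of the fits that left out 1 library and under scaling to pan-endothelial genes (-0.61, adjusted p = 0.139, edgeR). That scaling raised the median of all genes from 0.05 to 0.26 and left the other 5 calls in place, with Slc2a1 at -0.94, Slco1a4 at -1.08, Abcb1a at -0.70, Abcg2 at -0.52 and Slc38a5 at 1.79. Without the cluster led by choroid plexus genes, the 6 members were called in the same directions, beside 12.9% of genes higher and 12.4% lower, with Slc2a1 at -0.999, Slco1a4 at -1.06, Abcb1a at -0.62, Abcg2 at -0.55, Slc22a8 at -0.69 and Slc38a5 at 1.53. Without the 3 libraries that lay mostly in that cluster, Slc7a5 (-0.49) and Slc16a1 (-0.52) were called lower as well, 8 members in all, beside 14.5% of genes higher and 12.6% lower, with 1 injured knockout mouse left. Without the Apln-led cluster 7 members were called, beside 16.6% and 15.4%, and the added one was Mfsd2a (-0.73, adjusted p = 0.0384, edgeR). With the 2 Xist libraries left out, 4 members were called, all lower, beside 2.46% of genes lower and 4.99% higher in that fit: Slc2a1 (-1.27), Slco1a4 (-1.24), Abcg2 (-1.03) and Slc22a8 (-1.42). In that fit Abcb1a (-1.09, adjusted p = 0.0625) and Slc38a5 (1.01, adjusted p = 0.116), a gene of the X chromosome, were not called by edgeR. Capillary cells were 15.7% to 21.5% of the endothelial cells compared in the knockout and 44.9% to 65.6% in the wild type.

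Sham-operated mice of the 2 genotypes were compared to ask how they differed without injury. Of the 10 members, 4 were lower and 0 were higher in sham + Lrg1-/- than in sham + WT mice, where 15.4% of all tested genes were lower and 15.8% were higher. They were Slco1a4 (log2 fold change -0.71 ± 0.18 SE), Abcg2 (-0.47 ± 0.16), Slc16a1 (-0.46 ± 0.14) and Slc2a1 (-0.43 ± 0.15), with adjusted p values of 0.0142, 0.045, 0.029 and 0.0487 in edgeR's quasi-likelihood test. Slco1a4 had 1643, 1500 and 997 CPM in the knockout against 2033 to 2501 in the wild type, and the groups did not overlap. In all, 8 of the 10 members were lower in each sham + Lrg1-/- than in each sham + WT mouse, 4 of them without passing the test, where 27% of 16607 genes were lower and 25% higher without overlap. Among those 4, Slc22a8 had 225, 249 and 179 CPM in the knockout against 311 to 333, and Slco1c1 had 1021, 1078 and 668 against 1235 to 1462. Mfsd2a had 119, 159 and 99.9 against 166 to 216, and Abcb1a had 1036, 1050 and 571 against 1084 to 1177. The groups overlapped for Slc7a5, at 302 to 494 against 482 to 539, and for Slc38a5, at 130 to 236 against 160 to 202. The number called was 0 without sham + WT replicate 2 or 3, where 9.52% and 8.37% of all genes were lower, 1 without sham + WT replicate 1, beside 12.1%, and 2 without any 1 of the sham + Lrg1-/- mice, beside 10.3% to 16.6%. Without the Apln-led cluster Abcg2 was not called (-0.50, adjusted p = 0.053, edgeR).

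With the 12 pan-endothelial genes as the scale, 0 of the 10 members were called by edgeR in sham mice and 0 had an unadjusted p under 0.05, where 35.2% of all genes were called higher and 3.79% lower. That scaling moved the median of all genes from 0.02 to 0.45, and the members moved with it, to -0.01 for Slc2a1, -0.02 for Slc16a1, -0.06 for Abcg2, -0.30 for Slco1a4 and 0.49 for Slc38a5. Subtracting that median would only undo the scaling and return values near those of the scaling to all genes, so it is no further check. Without the cluster led by choroid plexus genes, 0 members were called too and 1 had an unadjusted p under 0.05, beside 5.71% of genes higher and 8.3% lower, with Slco1a4 at -0.34 and Slc16a1 at 0.02. The pan-endothelial genes themselves were lower in sham + Lrg1-/- mice, with 5 of 12 called down and a median log2 fold change of -0.38.

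**Figure D4:**
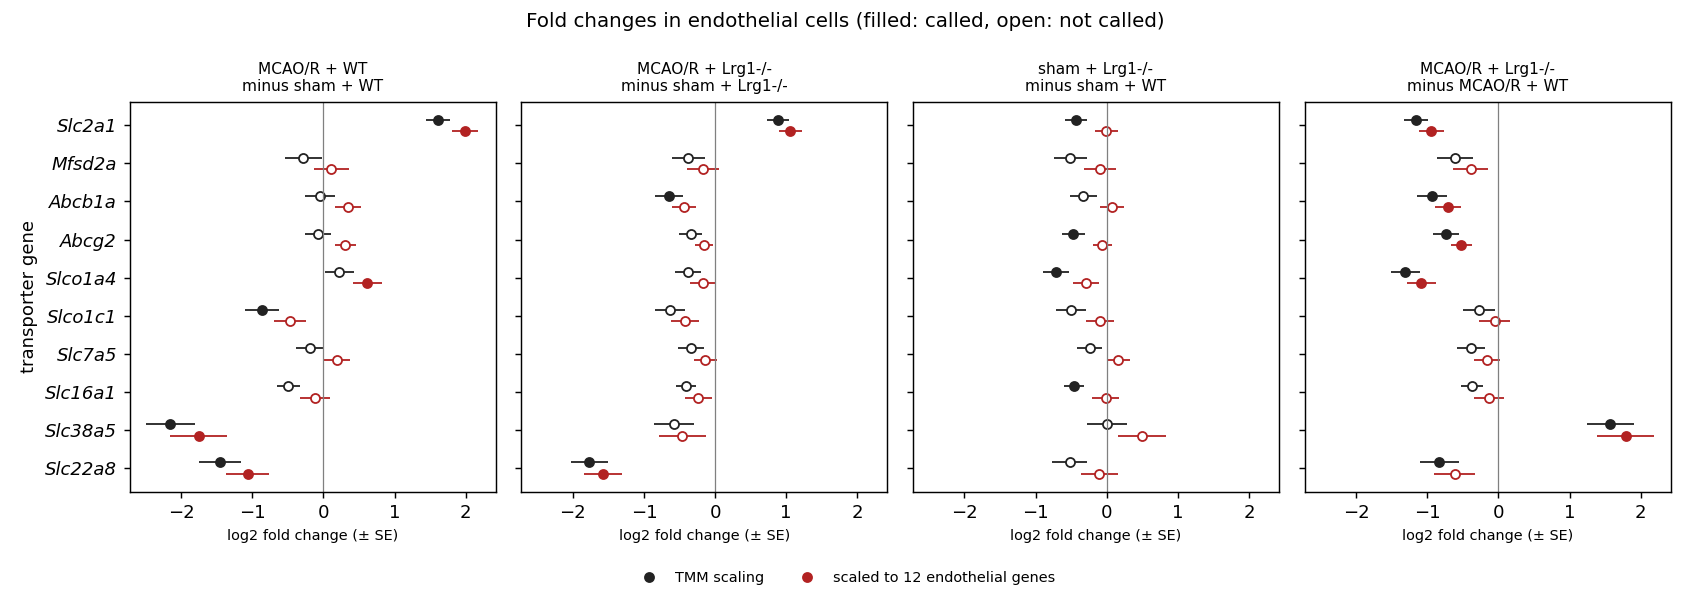
Log2 fold change of each transporter in endothelial cells with its SE in 4 comparisons, scaled by TMM over all genes (black) or by 12 pan-endothelial genes (red), where filled points were called and open points were not. Slc2a1 lies to the right of 0 after MCAO/R in both genotypes under either scaling, and in the sham comparison Slc2a1, Slc16a1 and Abcg2 lie near 0 under the second scaling, Slco1a4 at -0.30 and Slc38a5 at 0.49, where the median of all genes is 0.45.

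Whether the response to MCAO/R differed between genotypes was tested by the interaction of genotype and surgery. In all endothelial cells 0 of the 10 members were called by edgeR, where 0.0661% of all tested genes had a more positive and 0.24% a more negative response in knockout mice. At an unadjusted p under 0.05 there were 2, Slc38a5 (interaction 1.57 ± 0.43 SE on the log2 scale, adjusted p = 0.184) and Slc2a1 (-0.72 ± 0.23 SE, adjusted p = 0.253), and DESeq2 called the same 2 genes, beside 1.06% and 1.39% of genes, with adjusted p values of 0.0247 for Slc38a5 and 0.0384 for Slc2a1. Over the fits with 1 library left out, 0 members were called in each. With the Xist libraries left out, 0 were called by edgeR and 3 had an unadjusted p under 0.05, with Slc38a5 at 1.05, Slc2a1 at -0.80 and Slc22a8 at -0.87.

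The same comparisons were made within capillary, arterial and venous cells. In capillary cells, after MCAO/R in wild-type mice, 1 member rose and 3 fell, beside 23.6% of genes called in either direction. The members were those called in all endothelial cells: Slc2a1 (log2 fold change 1.82), Slc38a5 (-2.80), Slc22a8 (-1.28) and Slco1c1 (-0.47). In knockout mice 1 rose and 2 fell, beside 12.9% of genes: Slc2a1 (1.11), Slc22a8 (-1.23) and Slc38a5 (-0.73).

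Slc38a5 gave the clearest difference between genotypes in capillary cells. It had 203, 217 and 248 CPM in sham + WT, 138, 155 and 169 in sham + Lrg1-/-, 23.9 and 38.6 in MCAO/R + WT and 105, 95.1 and 94.5 in MCAO/R + Lrg1-/- mice. None of the 4 groups overlapped, and the share of all genes without overlap was not computed in capillary cells. Between the injured genotypes the log2 fold change was 1.56 ± 0.17 (SE; adjusted p = 1.88e-05, edgeR), and the interaction was 2.08 ± 0.21 on the log2 scale (SE; adjusted p = 7.95e-05, edgeR), beside 4.59% of genes called for the interaction. Without each library in turn the interaction lay between 1.78 and 2.43 and was called each time. Without both libraries with Xist it was 1.96 (adjusted p = 0.00729, edgeR), and the difference between injured genotypes was 1.42 (adjusted p = 0.0087, edgeR). The capillary cells came from 2 clusters, and the cluster led by Cxcl12 and Lrrn3 held 51.7% to 56.2% of them in sham + WT, 79.1% to 79.5% in sham + Lrg1-/-, 32.7% to 48.4% in MCAO/R + WT and 81.7% to 84.1% in MCAO/R + Lrg1-/- mice, the others lying in a cluster led by Unc13c.

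Between injured genotypes, 1 member was higher in capillary cells and 3 were lower in the knockout, beside 22.3% of genes in either direction. Slc2a1 (log2 fold change -0.89), Slco1a4 (-0.48) and Abcg2 (-0.39) were lower and Slc38a5 was higher. Abcb1a had 1245, 1020 and 980 CPM in knockout and 1316 and 1282 in wild-type capillary cells (log2 fold change -0.36, just short of the fold limit), and Slc22a8 had 158, 180 and 131 against 147 and 195 (-0.19, adjusted p = 0.385, edgeR). Slc16a1 had 516, 376 and 387 against 293 and 303 (0.42, adjusted p = 0.248, edgeR) and Slco1c1 had 1473, 1274 and 1071 against 981 and 1063 (0.23, adjusted p = 0.235, edgeR). For both genes the knockout values lay above the wild-type values without overlap, opposite in sign to all endothelial cells, and neither passed the test. When the Xist libraries were left out, which leaves 1 injured knockout mouse, log2 fold changes were -0.95 for Slc2a1, -0.65 for Abcg2, -0.59 for Abcb1a and -0.44 for Slco1a4. That of Slc38a5 stayed positive. In sham mice 1 member was called in capillary cells, Slc38a5, lower in the knockout (-0.51 ± 0.13 SE, adjusted p = 0.0154, edgeR), beside 14.3% of genes.

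In arterial cells 4 members were called after MCAO/R in wild-type mice (1 higher, 3 lower, beside 14.7% of genes) and 4 in knockout mice (1 higher, 3 lower, beside 12.1%). Slc2a1 rose by 1.54 on the log2 scale in wild-type and by 0.74 in knockout mice, and it was the member called for the interaction (-0.80 ± 0.20 SE, adjusted p = 0.0483, edgeR), beside 1.81% of genes. Arterial Slc2a1 was at 4888 and 6183 CPM in MCAO/R + WT and at 2824, 3350 and 2439 in MCAO/R + Lrg1-/- mice. The arterial interaction of Slc2a1 was -1.03 without the 2 libraries with Xist (adjusted p = 0.0171, edgeR), and that of Abcb1a was then called too (-0.97, adjusted p = 0.0126, edgeR). Between injured genotypes 1 member was higher and 3 were lower, beside 21.6% of genes, and in sham mice 0 were called by edgeR, with 1 at an unadjusted p under 0.05, beside 12.5%.

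Venous cells, the cluster with the highest Slc38a5, gave 4 calls after MCAO/R in wild-type mice (1 higher, 3 lower, beside 21.0% of genes) and 7 in knockout mice (1 higher, 6 lower, beside 18.0%). This cluster was led by Lrg1 and by genes of activated endothelium such as Selp and Sele. It held 8.77% to 10.1% of endothelial cells in MCAO/R + WT and 4.70% to 9.57% in MCAO/R + Lrg1-/- mice. MCAO/R + Lrg1-/- replicate 1 held 553 endothelial cells in all, against 2451 and 2456 in the MCAO/R + WT libraries. Its venous values thus rest on few cells. Venous Slc38a5 had 467, 606 and 503 CPM in sham + WT, 504, 436 and 711 in sham + Lrg1-/-, 71.0 and 113 in MCAO/R + WT and 527, 300 and 296 in MCAO/R + Lrg1-/- mice. Both injured wild-type mice were below all other mice, and the interaction was 1.93 ± 0.35 on the log2 scale (SE; adjusted p = 0.0196, edgeR), beside 1.04% of genes. It was 1.62 and not called without the 2 libraries with Xist (adjusted p = 0.0784, edgeR), while the difference between injured genotypes was (1.71, adjusted p = 0.0104, edgeR). Venous Slc22a8 had 317 to 344 in sham + WT and 43.1 and 78.8 in MCAO/R + WT mice (log2 fold change -2.47), and 234 to 249 in sham + Lrg1-/- and 14.1 to 65.3 in MCAO/R + Lrg1-/- mice (-2.80). Between injured genotypes 1 member was higher and 5 were lower, beside 17.2% of genes, among them Slco1a4 (log2 fold change -1.19) and Mfsd2a (-0.84), and in sham mice 0 were called by edgeR, with 1 at an unadjusted p under 0.05, beside 9.78%. With the Xist libraries left out, 1 member rose and 3 fell after MCAO/R in capillary cells of knockout mice, beside 2.45% of genes up and 2.8% down in that fit. In arterial cells 1 rose and 5 fell, beside 3.47% and 2.64%, and in venous cells 1 rose and 4 fell, beside 4.33% and 3.73%. Between injured genotypes 4 members were then called in arterial cells, all lower, beside 4.03% of genes higher and 3.77% lower, and 1 higher and 2 lower in venous cells, beside 1.25% and 0.812%, where Slco1a4 (-1.04) was called and Mfsd2a (-0.84, adjusted p = 0.308, edgeR) was not.

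**Figure D5:**
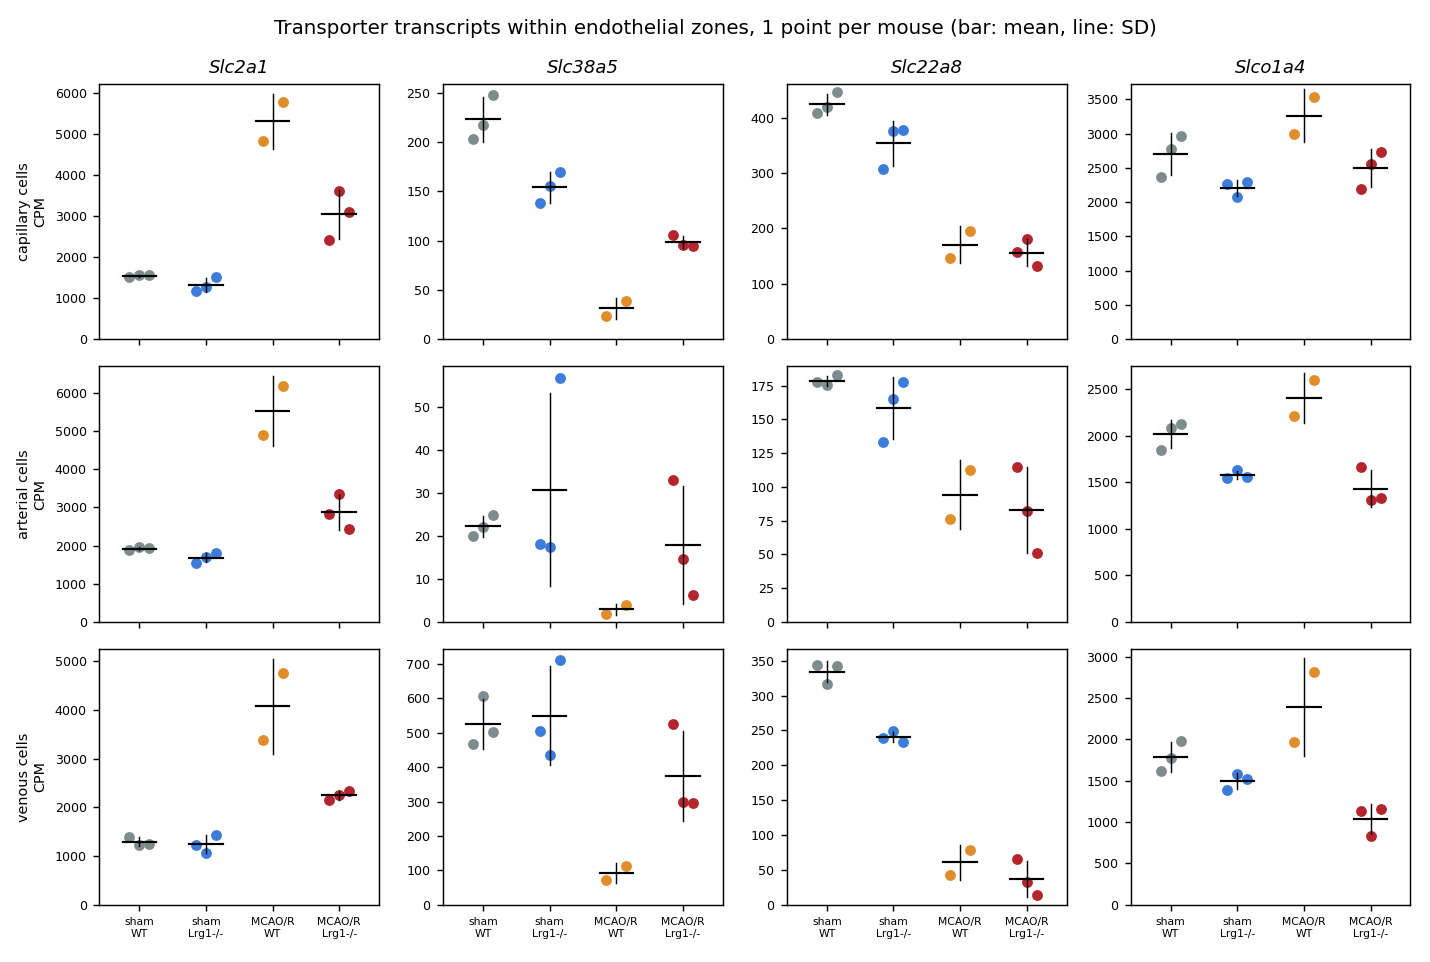
Slc2a1, Slc38a5, Slc22a8 and Slco1a4 in capillary, arterial and venous endothelial cells, in CPM on axes that differ between panels, with 1 point per mouse, a bar at the mean and a line for the SD. In each cluster Slc38a5 is lowest in the 2 MCAO/R + WT mice, at 23.9 and 38.6 in capillary and 71.0 and 113 in venous cells, and Slc2a1 is highest in them.

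Outside the endothelium, member tests could be made in 14 cell types and 52 comparisons. Of 486 tests, 44 were called, 22 higher and 22 lower, against 9.66% of all tests in the same fits. Slc2a1 rose in wild-type mice after MCAO/R in pericytes (log2 fold change 1.12), vascular smooth muscle (1.35), oligodendrocytes (1.06), microglia (0.93) and macrophages (1.37). In oligodendrocytes, where Slc2a1 had 120 to 121 CPM in sham + WT and 247 and 286 in MCAO/R + WT mice, against 130 to 136 and 136 to 197 in the knockout groups, the interaction was called as well (-0.80 ± 0.18 SE, adjusted p = 0.0301, edgeR; -0.84, adjusted p = 0.0136, without the 2 libraries with Xist). The share of all genes called for the interaction in oligodendrocytes is not given, so this call stands without a background. In wild-type microglia the Slc2a1 mean was 107 CPM in sham and 202 in injured mice and that of Slco1a4 26.0 and 41.1, against 1638 and 4923 of Slc2a1 in endothelial cells. Whether UMIs of endothelial RNA had a part in these rises was not tested.

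Members also changed in glia. Mfsd2a in astrocytes had 63.3 to 79.0 CPM in sham + WT and 152 and 293 in MCAO/R + WT mice (log2 fold change 1.61 ± 0.30 SE, adjusted p = 0.0307, edgeR), and 42.7 to 67.8 in MCAO/R + Lrg1-/- mice, 1.94 lower than MCAO/R + WT on the log2 scale (log2 fold change -1.94, adjusted p = 0.0184, edgeR). Neither passed the test without the 2 libraries with Xist (1.62, adjusted p = 0.0632, and -2.01, adjusted p = 0.171, edgeR). In oligodendrocytes Slc16a1, the lactate carrier, had 98.7 to 116 in sham + WT and 53.0 and 54.6 in MCAO/R + WT mice (log2 fold change -1.09, adjusted p = 5.62e-05, edgeR). It fell in the knockout as well, from 79.9 to 91.3 in sham + Lrg1-/- to 45.4 to 70.2 in MCAO/R + Lrg1-/- mice (-0.65, adjusted p = 0.00632, edgeR).

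Some calls in other cells ran with the endothelium at very low levels. Slc38a5 was called lower after MCAO/R in wild-type microglia (log2 fold change -1.86) and higher in injured knockout than in injured wild-type microglia (1.71), at 0.648 to 5.46 CPM over the 11 libraries, against 31.8 to 236 in endothelial cells. Slc38a5 in oligodendrocytes, at 0.346 to 4.87, was called in the same directions (-1.98 and 2.76). Without the 2 libraries with Xist the difference between injured genotypes was called neither in microglia (0.35) nor in oligodendrocytes (1.35). Whether these UMIs came from endothelial RNA was not tested. Pericytes had 223 to 289 CPM of Slc22a8 in sham + WT, 107 and 158 in MCAO/R + WT, 39.0 and 42.4 in the 2 sham + Lrg1-/- libraries and 82.5 and 107 in the 2 MCAO/R + Lrg1-/- libraries with enough pericytes. The sham difference was called (-2.58 ± 0.34 SE, adjusted p = 0.000125, edgeR). It rests on few knockout cells, with 36 and 28 pericytes in these 2 sham + Lrg1-/- libraries against 252, 267 and 243 in sham + WT. The injured knockout libraries lay above the sham knockout libraries, which did not pass the test (1.16 ± 0.43 SE, adjusted p = 0.194, edgeR), and neither did the interaction (2.09 ± 0.46 SE, adjusted p = 0.0602, edgeR).

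Other genes of transport across the barrier were described from lists. Under the pan-endothelial scaling, the counts of each list stand beside 20.8% of all genes called up and 2.84% down after MCAO/R in wild-type mice, 11.9% and 2.57% in knockout mice, 16.9% higher and 5% lower in the knockout between injured genotypes, and 35.2% and 3.79% in sham mice. Of 27 other transporters, 2 rose and 10 fell after MCAO/R in wild-type mice, beside 5.54% and 6.21% of all genes, with a median log2 fold change of -0.21 against 0.00 over all genes. Scaling to pan-endothelial genes turned this split to 8 up and 5 down, with a median of 0.17 against 0.38. Bsg, the chaperone of the lactate carriers, fell by 2.15 on the log2 scale, Slc40a1, the iron exporter, by 1.34 and the taurine carrier Slc6a6 by 1.61, while Abcb1b, the second mouse P-glycoprotein gene, rose by 1.65. Reads of Abcb1a and Abcb1b may be shared in part, since these paralogs are similar in sequence.

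In knockout mice 3 of the other transporters rose and 9 fell after MCAO/R, beside 6.93% and 5.34% of all genes, with 3 and 6 under the pan-endothelial scaling, and Abcb1b (1.74), Slc1a5 (1.47) and Slc40a1 (-1.19) were among them. Between the injured genotypes 4 were higher and 7 lower in the knockout, beside 14.9% and 12.1%, with 3 and 4 under the other scaling. The organic anion pump Abcc4 (log2 fold change -1.68) and the carnitine carrier Slc22a5 (-1.18) were lower, and Bsg was higher (1.04). In sham mice 2 were higher and 9 lower in the knockout, beside 15.8% and 15.4%, and 8 higher and 2 lower under the other scaling. For the interaction 0 of the 27 were called by edgeR.

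Carriers that work by vesicles formed separate lists. Of 10 transcytosis receptors, 1 rose and 2 fell after MCAO/R in wild-type mice, and 1 rose and 3 fell in knockout mice. The transferrin receptor Tfrc fell by 1.16 and by 1.10 on the log2 scale. Over all tested genes 5.54% rose and 6.21% fell in wild-type and 6.93% and 5.34% in knockout mice. Between injured genotypes 1 receptor was higher and 3 were lower in the knockout, beside 14.9% and 12.1% of all genes, and in sham mice 2 were higher and 3 lower, beside 15.8% and 15.4%. Under the pan-endothelial scaling the counts were 1 and 2 in each of the first 3 comparisons and 2 and 2 in sham mice. Of 6 genes of caveolae and fenestrae, 0 rose and 2 fell after MCAO/R in wild-type mice, with Cav1, the coat protein of caveolae, down by 1.90 on the log2 scale, and 1 rose and 2 fell in knockout mice. Cav1 was higher in injured knockout than in injured wild-type mice (log2 fold change 1.31, adjusted p = 0.00087, edgeR), the direction opposite to that of Slc2a1. In that comparison 3 of the 6 genes were higher and 1 was lower, and in sham mice 1 was higher and 1 lower, beside the same shares of all genes as for the receptors. Under the pan-endothelial scaling 0 rose and 1 fell in wild-type mice and 1 rose and 1 fell in knockout mice after MCAO/R, 3 were higher and 0 lower between injured genotypes, and 3 were higher and 0 lower in sham mice.

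The last list held 15 genes of the Wnt pathway of barrier endothelium. After MCAO/R 2 rose and 5 fell in wild-type mice, beside 5.54% and 6.21% of all genes, with a median log2 fold change of -0.42, and 1 rose and 6 fell in knockout mice, beside 6.93% and 5.34%, with a median of -0.49. Axin2, a target of the pathway, fell by 0.74 in wild-type and by 1.33 in knockout mice on the log2 scale, and the receptor gene Fzd4 rose (1.07 and 0.56). Between injured genotypes 7 of the 15 were lower and 0 were higher in the knockout, beside 12.1% and 14.9% of all genes, with a median of -0.52 against 0.05 over all genes, and the target genes Nkd1 (-1.55) and Apcdd1 (-1.39) and the co-receptor Lrp5 (-1.10) led them. In sham mice 5 were lower and 0 higher, beside 15.4% and 15.8%, and 0 lower and 1 higher under the pan-endothelial scaling. Under that scaling 2 rose and 2 fell after MCAO/R in wild-type mice, 1 rose and 4 fell in knockout mice, and 5 were lower between injured genotypes.

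Across the 18 cell types, the genes whose mean level was most like that of each member were found among 14968 genes by Pearson's r of log2 levels, as a description over types that share libraries. Adgrl4 and Tek were nearest to Slco1a4 (r = 0.99 for both) and to Abcb1a (r = 0.98 for both), Cldn5 was nearest to Slc38a5 (0.96), Emcn to Slc22a8 (0.96) and Foxl2 to Abcg2 (0.95). The values were lower for Slc2a1 (Polk, 0.92), Slc7a5 (Car5a, 0.89), Mfsd2a (Lypd1, 0.89), Slco1c1 (Tpd52l1, 0.89) and Slc16a1 (Slc30a1, 0.86).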

How the data were processed

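Droplet single-cell RNA sequencing (10x Genomics 3′) was done on right brain tissue of 11 mice, 1 library each. The authors deposited, per library, a matrix of UMI counts per gene and cell, raw and unscaled. Per the labels it was made with Cell Ranger and STAR on mm10, and per the file headers with Cell Ranger 7.0.1, while the study's methods name another version. Cells with over 500 genes, over 1000 UMIs and under 25% mitochondrial UMIs were kept (the smallest barcode of a library had 500 to 770 UMIs). Doublets were removed with Scrublet scores (expected rate 6%). The automatic limit was used unless it flagged too few cells, and then the top 6% of scores were removed. That second rule applied to sham + WT replicate 1, all sham + Lrg1-/- libraries and MCAO/R + Lrg1-/- replicates 1 and 5. Barcodes shared between libraries were counted and made at most 1.15% of the cells of the smaller library in any pair. Cells were clustered with batch-balanced neighbours (scanpy 1.11.5, leidenalg 0.10.2; resolution 0.3, and 0.5 within the endothelium) and named from at least 3 markers. Counts were summed per library and cell type, with at least 20 cells. All groups were fitted together with edgeR 4.0.16 (filterByExpr, TMM, glmQLFit, glmQLFTest; R 4.3.3), adjusted by Benjamini-Hochberg over all genes, after a test on simulated data. Labels do not say whether libraries were prepared together. The members and lists were chosen with earlier results of these data known. The genes named are all members and, of each list, up to 6 called genes with the largest fold change in a comparison. The nearest 3 genes to each member were found among genes with at least 10 CPM in 1 type. Alternatives were DESeq2 1.42.0, other scalings and filters, other choices of cells and libraries, a replicate block and leaving out each library.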

Additional observations from a re-analysis of the deposited data

Results flagged for a closer look

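In 4 cases the change after MCAO/R differed between knockout and wild-type mice by the interaction test in edgeR, within a single cell type or endothelial cluster. They come from tests of all members in many cell types and clusters, each adjusted within its own fit. In all endothelial cells no member was called. The share of genes called for the interaction was 4.59% in capillary, 1.04% in venous and 1.81% in arterial cells. For oligodendrocytes this share is not given, so the call there stands without a background. The change of Slc38a5 was less negative in the knockout in capillary cells (interaction 2.08 on the log2 scale, adjusted p = 7.95e-05) and in venous cells (1.93, adjusted p = 0.0196). That of Slc2a1 was less positive in arterial cells (-0.80, adjusted p = 0.0483) and in oligodendrocytes (-0.80, adjusted p = 0.0301). Without the 2 MCAO/R + Lrg1-/- libraries with Xist transcripts the values were 1.96, 1.62, -1.03 and -0.84 in the same order, and that in venous cells was not called (adjusted p = 0.0784). Haemoglobin and choroid plexus transcripts were higher in both knockout groups, and their part in these differences was not tested.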

How the results depend on the processing

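All fold changes of the members under all alternatives came to 1370 values besides those reported. Of these, 1222 stayed on their side of the threshold, among them 58 that were not called and changed sign, while 98 lost a call and 47 gained one. In 3 cases the direction turned: Slc16a1 in sham mice (knockout minus wild type) went to 0.13 in capillary cells only and to 0.015 without the cluster led by choroid plexus genes, and Slc38a5 in the same comparison went to -0.51 in capillary cells only. The Slc38a5 means over all endothelial cells were near equal, at 180 CPM in sham + Lrg1-/- and 187 in sham + WT mice. The number of members called between injured genotypes (6) was 3 to 8 with 1 library left out. After MCAO/R it was 2 to 5 in wild-type mice (4 in full; 2 without MCAO/R + WT replicate 1) and 2 to 6 in knockout mice (3 in full), where DESeq2 gave 5, no batch correction 7, leaving out the cluster led by choroid plexus genes 7 and leaving out the 3 libraries mostly in that cluster 5; the last setting leaves 1 MCAO/R + Lrg1-/- mouse. In sham mice (4 in full) it was 0 to 5 with 1 library left out: 0 without sham + WT replicate 2 or 3, 1 without sham + WT replicate 1 and 2 without any 1 sham + Lrg1-/- mouse. It was 0 with pan-endothelial scaling, with no batch correction and without the cluster led by choroid plexus genes, 1 in capillary cells only and 2 with at most 1 marker of each other cell type. For the interaction (0 in full) it was 2 with DESeq2, with no batch correction, without that cluster and without the 3 libraries, and 1 with no filter and in capillary cells. Where no share of all genes is given for a fit, its count of members is not read as a result on them. The share of all genes called moved under these settings too. In knockout mice after MCAO/R it was 8.54% up and 6.85% down with DESeq2, 12.5% and 10.5% with no batch correction and 13% and 9.59% without the 3 libraries, and in sham mice 8.18% were higher and 10.4% lower with no batch correction, 6.34% and 7.92% in capillary cells and 0.94% and 0.795% with at most 1 marker of each type. The cause was not tested. With a replicate block the counts were 3, 3, 2, 0 and 0, in the order injured genotypes, wild-type injury, knockout injury, sham and interaction. No share of all genes stands beside these counts, so they do not show whether the members or the whole fit lost calls. Over 13 pairs of same-numbered libraries the correlations of deviations lay between -0.45 and 0.20, with 2 over 0.1. Deviations within groups of 2 or 3 mice are tied to each other, so this does not settle whether the numbers pair the mice. Without the 2 libraries with Xist 1 injured knockout mouse is left. Effect sizes of that fit are given above for only part of the results that rest on these mice. Among those without such a value are Slc22a8 in pericytes and venous cells and Slc16a1 in oligodendrocytes. The choices made after the data were seen were those on clusters, on the 3 libraries, on the 2 libraries with Xist and on markers of each type. The stricter marker gate left fewer than 20 cells in nearly all knockout libraries and was run only for injury in wild-type mice, and a fit of only the groups compared gives no interaction. Over all libraries together, the 10 members stayed highest in endothelial cells under every alternative tried for that count. With 2 injured wild-type mice, each decides much of its group.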
